A study of Mus musculus with 7 samples.

Results

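Vegfa, Pgf, Adm, Slc2a1, Hk2, Pgk1, Ldha, Bnip3 and Ndrg1 are genes of the response to low oxygen, of glucose use and of blood vessel growth. These 9 genes, out of 13971 genes that could be named on the arrays, were chosen on values of the same 7 arrays described here, so their levels and ratios are a description with no test. Each gene had 1 probe, and its spot was called good, that is above background, on all 7 arrays.

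RNA came from thoracic mammary glands of 4-week-old female mice, kept in serum-free organ culture (MMOC) and hybridised to CodeLink Mouse Whole Genome arrays. The study asked what estrogen receptors α and β do in mammary development and in the formation of lesions induced by DMBA, a carcinogenic polycyclic hydrocarbon. Its 3 groups were WT mice of C57 strain, mice lacking ERα (αERKO) and mice lacking ERβ (βERKO), both of C57BL6/129SV background, each after 24 days of culture, with RNA of 5 mice pooled on 1 array. The labels describe 10 days of growth promotion with insulin, prolactin, aldosterone and hydrocortisone, 2 µg/ml DMBA for 24 h on Day 3, and 14 days of regression with insulin alone. Exposure to DMBA is named in the title of 1 WT array and in neither knockout title, so for the knockouts its use rests on the protocol. Pretreatment of the mice is given in the sources as 25 ng EGF with 1 mg progesterone for 5 days and also as 1 µg estrogen with 1 mg progesterone for 9 days. For the arrays of the study's 3 groups, the paper's account of the array results gives EGF with progesterone. The other 4 arrays held WT glands after 10 and after 24 days without DMBA, and wild-type BALB/c glands after 24 days with and without vitamin D5. Titles of the BALB/c arrays state neither DMBA nor the vitamin dose, and pooling is stated for the study's 3 groups only. Because knockouts and WT differed in background strain as well as in the receptor gene, genotype and strain cannot be told apart. By the paper, the hybridised glands of WT with DMBA and of βERKO mice contained lesions, and those of αERKO mice had none. Lesion status and genotype therefore cannot be told apart in the αERKO ratios either. The study's methods name αERKO glands as collected for hybridisation and then as too free of lesions to give material. Its discussion describes RNA from αERKO glands that had no lesions, and an array titled as the ESR1 knockout exists.

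With 1 array per group, no difference below has a replicate check. A log2 level is the log2 of a probe's intensity over the median intensity of gene probes on its array, and a log2 ratio is a difference of such levels for the same probe. The spread given with each comparison is an SD of log2 ratios taken over pairs of different probes that target one transcript, which measures probe error and not the error between mice. Of 34967 gene probes, 68.4% to 74.2% were good per array, the median intensity lay between 39.1 and 53.0, and the median local background between 80 and 83. The Esr2 probe (ERβ) was brighter on the array titled as the ESR2 knockout than on WT with DMBA, by at least 6.69-fold, since it was not well above background on the latter. That array is therefore called the labelled βERKO array throughout. Its Esr2 intensity was 77.2. Among wild-type arrays, only WT at 24 days without DMBA had Esr2 signal well above background, at 30.7. Whether this probe lies outside the deleted part of the gene, or the knockout arrays were exchanged, was not tested. An exchange would affect the array called αERKO as well, so every knockout ratio below is tied to the labels as given. Signal of the Esr1 probe (ERα) was not well above background on either knockout array, which bounds it at least 1.36-fold (αERKO) and at least 1.52-fold (labelled βERKO) below WT with DMBA. Of the 5 wild-type arrays, 3 also had no Esr1 signal well above background, so this probe does not set the knockouts apart. Summed over 14 skeletal muscle markers, the normalised intensity was 2659 on the αERKO array, 57.3 on the labelled βERKO array and 13.5 to 16.3 on the others, and all 14 were more than 2-fold higher on αERKO than on WT with DMBA. Over 10 mammary epithelial markers the sum was 452.5 on the αERKO array, 662.5 on the WT array with DMBA and 892.8 to 1666 on the other 5. These whole-tissue differences accompany every αERKO ratio given here, and their part in it was not tested. In RNA of whole glands, fewer cells of a type and less RNA per cell cannot be told apart.

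Cells short of oxygen stop hydroxylating the α subunits of hypoxia-inducible factors (HIFs), which then escape destruction through the VHL protein, pair with ARNT and switch on genes whose control regions hold the core letters ACGTG or GCGTG. The targets shift cells from respiration to glycolysis, bring in glucose and send signals that draw in blood vessels. Many of them also respond to growth factors, to hormones and to nutrient stress. In the mammary gland VEGF made by epithelium and stroma supports the vessels that grow with the ducts and alveoli.

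Promoter sequence of 5 of the genes is shown because Adm, Slc2a1 and Pgk1 were among the genes lowest on the αERKO array, Bnip3 was the member that was highest there, and Ldha varied least. Pgf and Ndrg1, lowest there too, are not shown. Each run is the 250 bases before a transcript start in RefSeq's mouse annotation (GRCm38.p6), read 5′ to 3′ on the gene's strand, and capitals mark ACGTG or GCGTG on either strand.
Adm (chr7:110627407-110627656, + strand): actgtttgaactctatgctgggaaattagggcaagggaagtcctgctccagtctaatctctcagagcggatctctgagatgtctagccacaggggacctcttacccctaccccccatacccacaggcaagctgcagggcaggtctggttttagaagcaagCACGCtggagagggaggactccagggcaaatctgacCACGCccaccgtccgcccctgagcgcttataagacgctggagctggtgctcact
Slc2a1 (chr4:119108495-119108744, + strand): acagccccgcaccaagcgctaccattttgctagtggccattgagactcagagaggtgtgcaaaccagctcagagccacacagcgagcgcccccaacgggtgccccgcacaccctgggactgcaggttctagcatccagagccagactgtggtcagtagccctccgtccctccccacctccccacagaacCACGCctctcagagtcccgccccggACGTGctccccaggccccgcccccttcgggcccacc
Pgk1 (chrX:106186850-106187099, + strand): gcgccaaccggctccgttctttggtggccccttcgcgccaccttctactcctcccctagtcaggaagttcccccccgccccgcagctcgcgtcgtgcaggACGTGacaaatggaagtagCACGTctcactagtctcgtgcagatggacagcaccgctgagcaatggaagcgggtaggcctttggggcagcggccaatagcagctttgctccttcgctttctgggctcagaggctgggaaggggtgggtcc
Bnip3 (chr7:138909507-138909756, - strand): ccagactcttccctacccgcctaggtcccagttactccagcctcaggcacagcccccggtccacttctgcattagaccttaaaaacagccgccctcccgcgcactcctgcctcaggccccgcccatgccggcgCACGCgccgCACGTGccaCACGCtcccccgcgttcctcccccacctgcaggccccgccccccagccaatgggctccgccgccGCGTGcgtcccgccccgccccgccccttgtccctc
Ldha (chr7:46845554-46845803, + strand): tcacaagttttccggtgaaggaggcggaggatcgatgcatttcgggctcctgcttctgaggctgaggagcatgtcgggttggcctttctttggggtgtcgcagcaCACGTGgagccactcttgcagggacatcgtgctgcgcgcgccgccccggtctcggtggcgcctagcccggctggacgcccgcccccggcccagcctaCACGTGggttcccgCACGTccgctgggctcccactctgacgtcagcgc
There were 5 matches in the Bnip3 window and 5 in this Ldha window, where the palindrome CACGTG is counted on both strands, and 2 each in the windows of Adm, Slc2a1 and Pgk1. The windows of Pgf, not shown, had 1 match and 0 matches. The table of promoters held 11 windows for 8 of the 9 genes, those above and further windows of Hk2, Ldha, Pgf and Vegfa; Ndrg1 was not in it. Of the 11 windows, 9 had at least 1 match, and each of the 8 genes had a window with one. For Vegfa the window farther upstream had none, and its matches lay in the window of a transcript start farther downstream. Over all 32851 windows of this length the share with a match was 38.6%, and 6.58% had 3 or more. A match is a run of letters and not evidence of a bound factor.

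**Figure D1:**
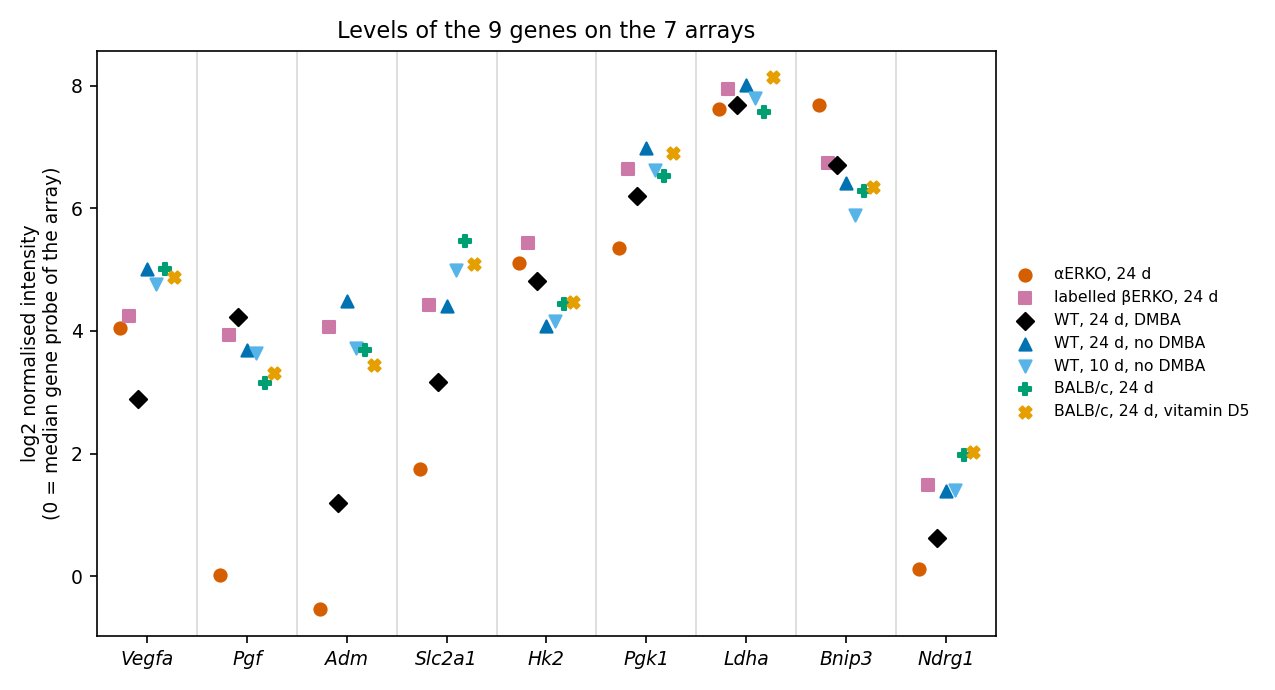
Log2 normalised intensity (vertical axis, 0 is the median gene probe of the array) of each of the 9 genes (horizontal axis), with 1 point per array and no error bars because each group is 1 array. The αERKO point is lowest for Pgf, Adm, Slc2a1, Pgk1 and Ndrg1 and highest for Bnip3, and the Ldha points lie within 0.56 of each other.

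Of the 9 genes, 5 had their lowest level of the 7 arrays on the αERKO array (Pgf, Adm, Slc2a1, Pgk1 and Ndrg1) and 1, Bnip3, had its highest level there. Over all probes good on at least 1 array, 32.1% were lowest and 20.8% were highest on the αERKO array. For Adm, Slc2a1, Pgk1 and Ndrg1 the WT array with DMBA came next from below, and for Vegfa it was the lowest of all. Ranges over the 7 arrays ran from 5.02 on the log2 scale for Adm to 0.56 for Ldha, against a median range of 1.05 over the 9338 genes that were good on all 7 arrays.

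Among the secreted angiogenic factors, Vegfa encodes VEGF-A, the main growth factor of endothelial cells. The Vegfa probe (GE33886) had log2 levels of 4.06 on the αERKO array, 4.25 on the labelled βERKO array and 2.90 on the WT array with DMBA. On the arrays outside the study's 3 groups it stood at 5.01 for WT at 24 days without DMBA, 4.77 for WT at 10 days, 5.01 for BALB/c and 4.89 for BALB/c with vitamin D5. The WT array with DMBA was thus the low one, and all 4 arrays outside the study's groups were above both knockout arrays. Against the WT array with DMBA, Vegfa was 2.23-fold higher on αERKO and 2.55-fold higher on the labelled βERKO array. The αERKO ratio fell under 2-fold, to a log2 ratio of 0.87, under normexp background correction. The knockout arrays themselves differed by a log2 ratio of -0.19, less than the spread of 0.57.

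Pgf encodes placental growth factor, a VEGF relative that binds the receptor encoded by Flt1. Log2 levels of Pgf (GE34195) were 0.02 on the αERKO array, 3.93 on the labelled βERKO array and 4.23 on the WT array with DMBA. They were 3.70 for WT at 24 days without DMBA, 3.64 for WT at 10 days, 3.15 for BALB/c and 3.31 for BALB/c with vitamin D5. The αERKO array stood alone, 3.13 below the next lowest, while the other 6 arrays lay between 3.15 and 4.23. In background-subtracted intensity this is 39.7 on αERKO and 964.6 on WT with DMBA, with 14.1 as the lowest good intensity on the αERKO array. Pgf was 18.5-fold lower on αERKO than on WT with DMBA and 15.0-fold lower than on the labelled βERKO array. The log2 ratio of -4.21 to WT became -3.27, and that of -3.91 to the labelled βERKO array became -2.85, under normexp correction.

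Adm encodes adrenomedullin, a vasodilator peptide that also acts on endothelium. Its probe (GE35035) gave log2 levels of -0.54 on the αERKO array, 4.07 on the labelled βERKO array and 1.19 on the WT array with DMBA. Values were 4.49 for WT at 24 days without DMBA, 3.72 for WT at 10 days, 3.68 for BALB/c and 3.44 for BALB/c with vitamin D5. Adm was low on 2 arrays, αERKO and WT with DMBA, and the other 5 lay between 3.44 and 4.49. Its range of 32.5-fold was at percentile 98.6 of the genes good on all arrays. Adm was 3.31-fold lower on αERKO than on WT with DMBA, 7.35-fold higher on the labelled βERKO array than on WT with DMBA, and 9.80-fold lower on WT with DMBA than on WT without it. The intensity on the αERKO array was 27.0, against a lowest good intensity of 14.1, and the log2 ratio of -1.73 to WT became -0.91 under normexp correction. The same correction took the log2 ratio of αERKO to the labelled βERKO array from -4.61 to -3.20.

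Slc2a1 encodes GLUT1, the glucose transporter found in most growing cells. Slc2a1 (GE42449) stood at a log2 level of 1.75 on the αERKO array, 4.42 on the labelled βERKO array and 3.17 on the WT array with DMBA. Levels were 4.40 for WT at 24 days without DMBA, 4.99 for WT at 10 days, 5.47 for BALB/c and 5.09 for BALB/c with vitamin D5. The order from below was the same as for Adm at its start, with αERKO first and WT with DMBA second. Slc2a1 was 2.68-fold lower on αERKO than on WT with DMBA, 2.38-fold higher on the labelled βERKO array than on WT with DMBA and 2.35-fold lower on WT with than without DMBA. Each of these stayed over 2-fold in every setting tried, though some settings could not change a gene with 1 probe good on all arrays. The ratio of WT with to without DMBA came closest to 2-fold, at a log2 ratio of -1.002. Slc2a1 was also the only member over 2-fold between strains, 2.10-fold higher on BALB/c than on WT at 24 days without DMBA by title.

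Hk2 encodes hexokinase 2, which traps glucose in the cell by phosphorylation. For Hk2 (GE36647) the log2 levels were 5.11 on αERKO, 5.43 on the labelled βERKO array, 4.81 on WT with DMBA, 4.08 on WT at 24 days without DMBA, 4.17 on WT at 10 days, 4.44 on BALB/c and 4.47 on BALB/c with vitamin D5. The study's 3 arrays were here the highest of the 7. Hk2 passed 2-fold in none of the 7 comparisons, and its log2 ratio of WT with to without DMBA was 0.73.

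Pgk1 encodes phosphoglycerate kinase, a glycolytic enzyme that makes ATP. Log2 levels of Pgk1 (GE42544) were 5.35 on αERKO, 6.64 on the labelled βERKO array, 6.20 on WT with DMBA, 6.98 on WT at 24 days without DMBA, 6.62 on WT at 10 days, 6.53 on BALB/c and 6.90 on BALB/c with vitamin D5. The αERKO array was lowest and WT with DMBA was next. Pgk1 was 2.45-fold lower on αERKO than on the labelled βERKO array, a call that cyclic loess normalisation ended (log2 ratio of -0.88 in place of -1.30). Against WT with DMBA the log2 ratio was -0.85, and -1.04 under normexp correction.

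Ldha encodes the lactate dehydrogenase subunit that favours turning pyruvate to lactate. The Ldha probe (GE42638), with the highest intensity of the members (14927 on BALB/c with vitamin D5), had log2 levels of 7.62 on αERKO, 7.95 on the labelled βERKO array, 7.69 on WT with DMBA, 8.01 on WT at 24 days without DMBA, 7.80 on WT at 10 days, 7.58 on BALB/c and 8.14 on BALB/c with vitamin D5. Its range of 1.48-fold was at percentile 15.7 of all genes good on every array. No comparison of Ldha passed 2-fold.

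Bnip3 encodes a mitochondrial protein that marks mitochondria for autophagy. Levels of Bnip3 (GE35123) on the log2 scale were 7.68 on αERKO, 6.75 on the labelled βERKO array, 6.71 on WT with DMBA, 6.42 on WT at 24 days without DMBA, 5.90 on WT at 10 days, 6.28 on BALB/c and 6.35 on BALB/c with vitamin D5. The αERKO array was highest and exceeded the next array by 0.93. The ratio of αERKO to WT with DMBA was 1.95-fold, just inside 2-fold, and became a log2 ratio of 1.10 with scaling to the 75th percentile and 1.09 under cyclic loess.

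Ndrg1 encodes a stress-induced protein linked to differentiation and to lipid handling. Ndrg1 (GE34084) had log2 levels of 0.12 on αERKO, 1.48 on the labelled βERKO array, 0.62 on WT with DMBA, 1.38 on WT at 24 days without DMBA, 1.41 on WT at 10 days, 1.97 on BALB/c and 2.03 on BALB/c with vitamin D5. The low end again held αERKO and then WT with DMBA. Ndrg1 was 2.58-fold lower on αERKO than on the labelled βERKO array, and normexp correction brought this log2 ratio from -1.37 to -0.79. The intensity was 42.4 on αERKO and 79.4 on WT with DMBA, against a lowest good intensity of 14.1 on αERKO.

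**Figure D2:**
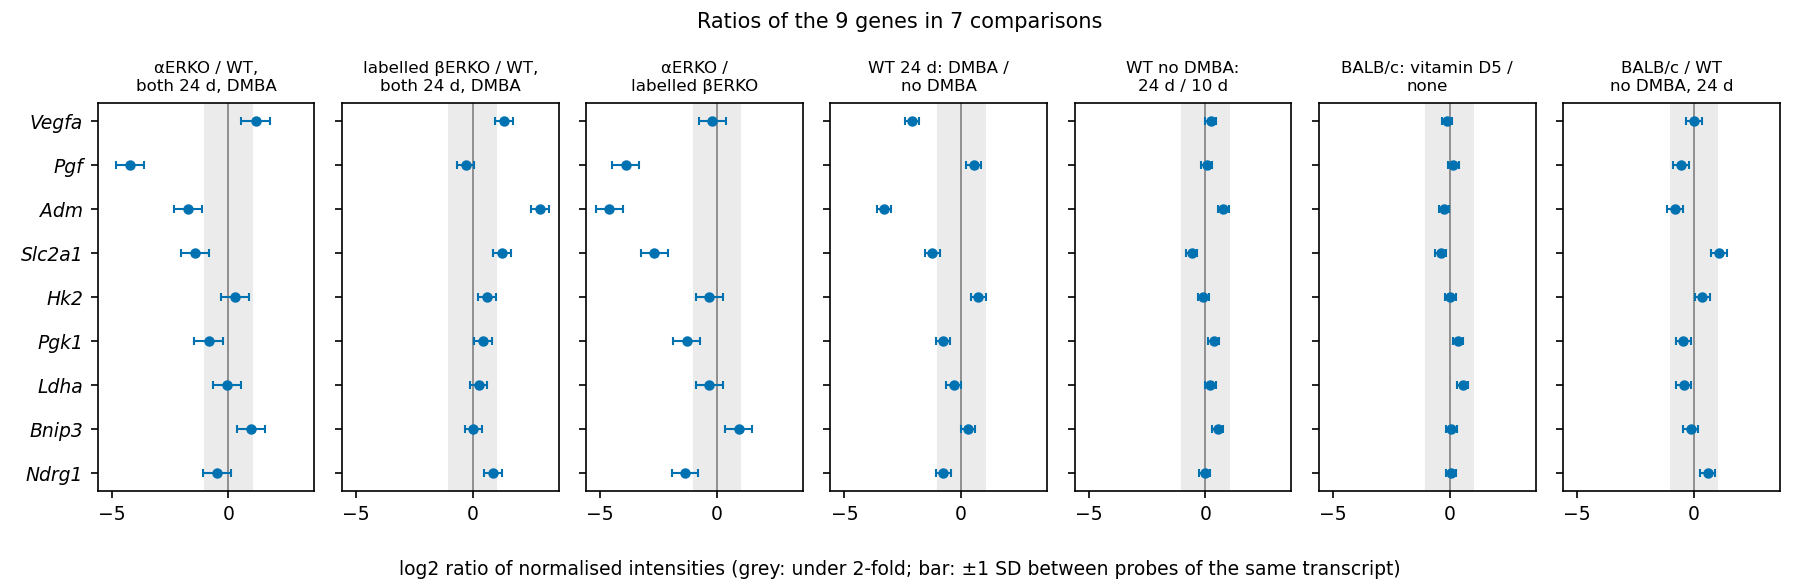
Log2 ratios of the 9 genes (points) in each of the 7 comparisons (panels), with bars of 1 SD over pairs of probes for one transcript, which is not replicate error, and grey for ratios under 2-fold. Pgf and Adm lie farthest from 0, and in the comparisons of culture time and of vitamin D5 all 9 genes lie inside the grey band.

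Between αERKO and WT, both at 24 days and with DMBA by protocol, Vegfa was over 2-fold higher and Pgf, Adm and Slc2a1 were over 2-fold lower on αERKO. That is 1 gene higher and 3 lower of 9, where 11.7% of the 27812 probes measured were over 2-fold higher and 14.1% lower (13.5% and 11.8% with scaling to the 75th percentile). The median log2 ratio was -0.51 over the 9 genes and -0.09 over all probes measured, and the spread was 0.60. Hk2, Ldha and Ndrg1, with log2 ratios of 0.30, -0.07 and -0.51, lay within that spread. Beside the muscle and epithelial sums given above, 5 of 6 macrophage markers were over 2-fold lower and 1 higher on αERKO, with a median log2 ratio of -1.93, and 4 of 8 fibroblast markers were higher, with a median of 1.15. Summed levels on αERKO and WT with DMBA were 79.4 and 311.9 for macrophage and 543.6 and 217.3 for fibroblast markers, and their part in the ratios was not tested.

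Between the labelled βERKO array and WT with DMBA, Adm, Vegfa and Slc2a1 were over 2-fold higher and none was lower. All probes gave 6.96% over 2-fold higher and 8.37% lower. The median log2 ratio was 0.62 over the 9 genes and 0.09 over all probes, with a spread of 0.38. Pgf, Ldha and Bnip3 lay within the spread, at -0.30, 0.26 and 0.03. These directions hold for the arrays as labelled, with the doubt from the Esr2 probe given above. Markers of other cells moved beside them: over 2-fold lower than on WT with DMBA were 10 of 12 endothelial markers, 4 of 6 macrophage markers and 5 of 8 fibroblast markers (3 under normexp correction), and 6 of 10 skeletal muscle markers were higher (4 under normexp correction). Summed levels on the labelled βERKO array and on WT with DMBA were 75.4 and 191.0 for endothelial, 149.0 and 311.9 for macrophage, 86.4 and 217.3 for fibroblast and 57.3 and 16.3 for muscle markers. What part these had in the ratios was not tested.

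Between αERKO and the labelled βERKO array, Adm, Pgf, Slc2a1, Ndrg1 and Pgk1 were over 2-fold lower on αERKO and none was higher. Over all probes 13.5% were higher and 16.6% lower, a split that turned to 16.2% and 12.8% with scaling to the 75th percentile. The member median was -1.30 and that of all probes -0.18, with a spread of 0.57. These 3 comparisons share arrays pairwise, so each pair repeats part of the same measurement. That scaling left the same 5 genes over 2-fold lower, while Bnip3 passed 2-fold higher at 1.12. All 8 fibroblast markers (5 under normexp correction) and all 14 muscle markers were over 2-fold higher on αERKO. So were 5 of 12 endothelial markers (2 under normexp correction, 7 under cyclic loess) and 4 of 9 adipocyte markers. Of 9 mammary epithelial markers, 6 were over 2-fold lower (4 with scaling to the 75th percentile) and 0 higher. The part of all these markers in the ratios was not tested either.

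Between WT glands at 24 days with and without DMBA, Adm, Vegfa and Slc2a1 were over 2-fold lower with DMBA, with log2 ratios of -3.29, -2.11 and -1.23. None of the 9 was higher, where 10.1% of all probes were higher and 8.46% lower. The member median was -0.76, that of all probes -0.13, and the spread 0.31. The WT array with DMBA serves as the denominator for both knockout arrays too, so its low Vegfa value stands in all of these ratios. Markers of stromal cells were higher on the WT array with DMBA than without it: all 12 endothelial markers measured, 7 of 8 fibroblast, 7 of 9 adipocyte and 5 of 6 macrophage markers were over 2-fold higher, and 3 of 10 mammary epithelial markers were lower (1 under quantile normalisation and 0 under cyclic loess). Summed endothelial levels were 191.0 with DMBA and 43.2 without, and summed fibroblast levels 217.3 and 14.7. What part these shifts had in the ratios of Adm, Vegfa and Slc2a1 was not tested.

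In the comparisons of culture time and of vitamin D5 none of the 9 genes passed 2-fold. From 10 to 24 days in WT without DMBA, 6.05% of all probes were over 2-fold higher and 6.34% lower. The farthest was Adm with a log2 ratio of 0.76 against a spread of 0.24, and Slc2a1 (-0.59), Bnip3 (0.52) and Pgk1 (0.36) also lay outside it. With vitamin D5 in BALB/c glands, 5.12% of probes were over 2-fold higher and 7.06% lower. Ldha had the largest log2 ratio, 0.56, followed by Slc2a1 at -0.38, Pgk1 at 0.36 and Adm at -0.25, each outside the spread of 0.23. For BALB/c, whose titles do not state DMBA, against WT without DMBA, 1 gene (Slc2a1) was higher and none lower, where 9.17% of probes were higher and 9.33% lower (12.0% and 5.86% with scaling to the 75th percentile). Vegfa stood at 5.01 on both of these arrays. Adm (-0.80), Ndrg1 (0.59), Pgf (-0.55), Pgk1 (-0.44), Ldha (-0.43) and Hk2 (0.36) lay under 2-fold and outside the spread of 0.33.

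Upstream of these genes, 9 components of the HIF pathway were measured. None was over 2-fold between αERKO and WT with DMBA, beside 11.7% of all probes higher and 14.1% lower. Their median log2 ratio was -0.32. Hif1a, the main oxygen-regulated subunit, stood at -0.33, Epas1 (HIF-2α) at -0.68 and Vhl at -0.41. On the labelled βERKO array, Egln3, a HIF prolyl hydroxylase that is itself a HIF target, was over 2-fold higher than on WT with DMBA (1.22). It was the only 1 of 9, beside 6.96% of all probes higher and 8.37% lower. Between αERKO and the labelled βERKO array, Vhl (-1.07) and Egln3 (-1.005) were lower of 8, beside 16.6% of all probes. With scaling to the 75th percentile, quantile normalisation, cyclic loess or normexp correction, 0 of the 8 were lower. Between WT with and without DMBA, Vhl was lower (-1.38), the only 1 of 9, beside 8.46% of all probes lower and 10.1% higher. Hif3a was at least 1.19-fold higher with DMBA, its probe not being well above background without it. HIF activity is set largely through protein stability, which these arrays do not measure.

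A list of other genes that low oxygen induces, of which 26 were measured and none is among the 9, was examined beside them; it shares Egln3 with the list of HIF components. Between αERKO and WT with DMBA, 2 of the 26 were over 2-fold higher and 11 lower, with a median log2 ratio of -0.68. Lowest were Hmox1 (heme oxygenase), at -4.70, and Car12 (a carbonic anhydrase), at -2.80, with Hilpda (a lipid droplet protein) at -1.92. Pfkfb3, which raises the activator of phosphofructokinase, went the other way at 2.30. All probes gave 11.7% higher and 14.1% lower. Under normexp correction 2 of the 26 were higher and 5 lower, beside 3.60% and 5.87% of all probes. Between the labelled βERKO array and WT with DMBA, 9 of 26 were over 2-fold higher and none lower, beside 6.96% and 8.37% of all probes, with a median of 0.69 and Hilpda at 2.08. The 9 became 6 under cyclic loess, beside 6.24% of all probes, and 5 under normexp correction, beside 1.89%. Between αERKO and the labelled βERKO array, 1 of 25 was higher and 16 were lower, beside 13.5% and 16.6% of all probes, with Hmox1 at -6.18. Under normexp correction 10 were lower, beside 7.16% of all probes. Between WT with and without DMBA, 2 of 26 were higher and 6 lower, beside 10.1% and 8.46% of all probes. The 2 that were higher, Lox and Loxl2, encode enzymes that cross-link collagen, and stood at 2.59 and 2.67 on the log2 scale. The Loxl2 probe was not well above background without DMBA, which gives a bound of at least 2.64-fold. Fibroblast markers were higher on the WT array with DMBA too, and their part in these ratios was not tested. Among the 6 lower was Hilpda, with log2 levels of 5.17 with DMBA and 7.20 without. The median log2 ratio of the 26 was -0.53.

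**Figure D3:**
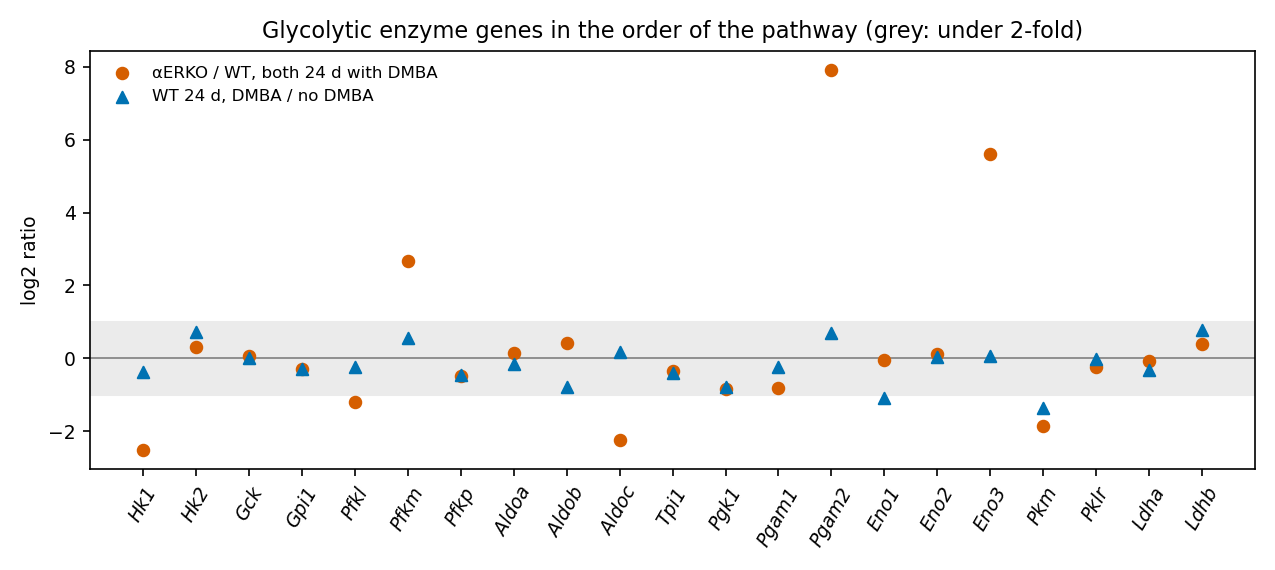
Log2 ratios (vertical axis) of the 21 glycolytic enzyme genes measured, in the order of the pathway (horizontal axis), for αERKO over WT with DMBA and for WT with over without DMBA; each point is 1 probe on 1 pair of arrays and has no error bar. Pgam2, Eno3 and Pfkm stand above the grey 2-fold band for αERKO, and Hk1, Aldoc, Pkm and Pfkl below it.

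Of 21 glycolytic enzyme genes, Hk2, Pgk1 and Ldha included, 3 were over 2-fold higher and 4 lower on αERKO than on WT with DMBA, beside 11.7% and 14.1% of all probes, and their median log2 ratio was -0.07. Those that were higher were Pgam2 (7.92), Eno3 (5.61) and Pfkm (2.67), which encode the muscle forms of phosphoglycerate mutase, enolase and phosphofructokinase. They stood beside the 14 skeletal muscle markers, whose median log2 ratio was 7.90, and the part of muscle in them was not tested. Those that were lower were Hk1 (-2.53), Aldoc (-2.26), Pkm (-1.85) and Pfkl (-1.19). None of the 21 passed 2-fold between the labelled βERKO array and WT with DMBA, though 1 was lower with the median over a gene's probes. Pkm (-1.36) and Eno1 (-1.10) were lower on WT with than without DMBA, and Eno1 came under 2-fold with quantile normalisation (-0.86), cyclic loess (-0.66) and normexp correction (-0.99). Among transporters, Slc2a4, which encodes the insulin-responsive GLUT4 of fat and muscle, had a log2 ratio of 2.39 between WT with and without DMBA, where Slc2a1 had -1.23.

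Receptors of the angiogenic factors are given here beside their ligands. Kdr, the main VEGF-A receptor of endothelium, had log2 ratios of 3.51 for WT with over without DMBA, -1.78 for the labelled βERKO array over WT with DMBA and 1.29 for αERKO over WT with DMBA, where Vegfa had -2.11, 1.35 and 1.16. The probe of Flt1, the receptor of Pgf and Vegfa, was well above background on WT with DMBA alone of the arrays in these comparisons, which bounds Flt1 there at least 1.14-fold above WT without DMBA, at least 1.14-fold above the labelled βERKO array and at least 1.03-fold above αERKO. Ramp2, a partner of the adrenomedullin receptor, had 3.15, -2.82 and 0.54, where Adm had -3.29, 2.88 and -1.73. Calcrl, the receptor itself, had 2.08, -0.49 and -1.11. The endothelial markers had medians of 2.16, -1.31 and -0.25 in the same order; Kdr is one of that list as well.

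**Figure D4:**
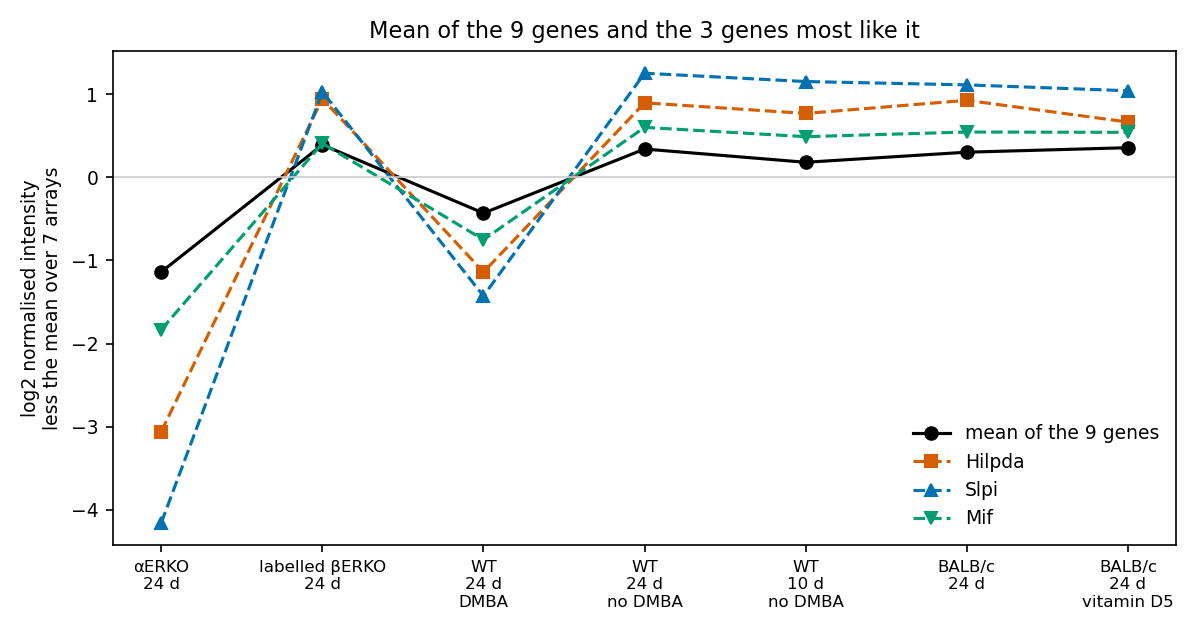
Mean log2 level of the 9 genes and levels of Hilpda, Slpi and Mif (vertical axis, each less its own mean over the 7 arrays) on the 7 arrays (horizontal axis, which has no order); lines only join the points of one gene. All 4 curves are lowest on the αERKO array and next lowest on the WT array with DMBA.

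The mean of the 9 log2 levels was 3.46 on αERKO, 4.17 on WT with DMBA, 4.78 on WT at 10 days, 4.90 on BALB/c, 4.94 on WT at 24 days without DMBA, 4.96 on BALB/c with vitamin D5 and 4.99 on the labelled βERKO array. Outside the 2 low arrays the means thus lay between 4.78 and 4.99. The genes whose pattern over the 7 arrays was most like this mean were Hilpda (Pearson's r of 0.993), Slpi, a protease inhibitor (0.991), and Mif, a cytokine (0.991), among 4936 genes with a range over 1 on the log2 scale. For Pgf alone they were Iqgap1 (0.989), Bex3 (0.986) and Rab4a (0.985), and for Vegfa alone Mab21l4 (0.943), Alox12b (0.943) and Mief1 (0.942), among 4943 genes. With 7 points, 1 or 2 of which lie far from the rest, these coefficients rest mainly on the αERKO array and, for Vegfa, on the WT array with DMBA.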

How the data were processed

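The authors hybridised cRNA to CodeLink Mouse Whole Genome arrays, 1 colour and 1 array per group, from RNA whose pooling is stated for the study's 3 groups. Per the file headers, the deposited intensity is a spot mean from which the local background median was subtracted, and the CodeLink software flagged each spot. The deposited series table, whose 36227 rows carry no probe names, was not used. The depth of an array is its number of good spots, and the number of arrays, 7, limits the precision.

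Following the study's methods, each of 34967 gene probe intensities was scaled to its array's median, 320 negative and 300 positive control spots being left out, and log2 was taken. Probes good on at least 1 of 2 arrays were counted when over 2-fold apart. RefSeq's mouse gene table named 14763 of 15553 probes with a RefSeq accession. For list genes with several probes the brightest was used. Where a probe was not well above background on 1 array, the ratio is a bound, taken against its own value there or the lowest good value, whichever was higher. No test was run.

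The members and the 15 gene lists were chosen with earlier results of these data known. Named list genes are the 4 farthest from 0 between αERKO and WT and the 2 farthest in other comparisons, and those the text sets beside a member or a caption shows, chosen after their values were seen. The genes most like a pattern are the 3 with the highest Pearson's r. Alternatives were the 75th percentile, quantile and cyclic loess normalisation and normexp correction with an offset of 50 (limma 3.58.1 in R 4.3.3), the deposited normalized intensity, a floor at the lowest good value, probes good on both arrays, the median over a gene's probes, and thresholds of 3-fold and 1.5-fold. The counting was tested on simulated data. Tables were handled in Python 3.11.15.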

Additional observations from a re-analysis of the deposited data

How the results depend on the processing

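No ratio of the 9 genes that was over 2-fold changed sign under any alternative; smaller ratios crossed 0 for Ldha, Bnip3, Vegfa, Hk2, Pgf and Ndrg1 in some comparisons. Of 504 alternative values of single genes, 483 lay within the spread between probes of a transcript and 21 moved further, and of 131 alternative counts and medians 11 moved. These totals include alternatives that could not move the 9 genes, each with 1 probe good on all 7 arrays. For them the floor, the probes good on both arrays and the median over a gene's probes returned the main value. The deposited normalized intensity differed from the main scaling only by a factor of 1.005 to 1.009 per array. At a 3-fold threshold the number of the 9 genes past it was 2 for αERKO against WT, 1 for the labelled βERKO array against WT, 3 for αERKO against the labelled βERKO array and 0 for BALB/c against WT. At 1.5-fold it was 5 for the labelled βERKO array against WT, 6 for WT with against without DMBA, 2 for 24 against 10 days and 3 for BALB/c against WT. The share of all probes past 3-fold and 1.5-fold was not counted, so these counts cannot be set against it. The median log2 ratio of the 9 genes became -0.43 under cyclic loess for WT with against without DMBA, and 0.19 under quantile normalisation and 0.21 under cyclic loess for BALB/c against WT. The cause was the threshold itself for the counts and was not tested for the medians. Scaling to the 75th percentile moved the median of all probes between αERKO and WT from -0.09 to 0.04, between αERKO and the labelled βERKO array from -0.18 to 0.00 and between BALB/c and WT from -0.15 to 0.07. With 1 array per group no replicate could be left out. No paired analysis was possible because each group holds 1 array.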

Other observations

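Downstream of glycolysis, 10 genes of lactate transport and of the control of pyruvate dehydrogenase were measured. Between αERKO and WT with DMBA, Slc16a7, which encodes the monocarboxylate transporter MCT2, was over 2-fold higher with a log2 ratio of 2.12, and Slc16a3 (-1.36), which encodes the lactate exporter MCT4, and Pdk4 (-1.07), a kinase that switches pyruvate dehydrogenase off, were lower. That is 1 higher and 2 lower of 10, near the 11.7% and 14.1% of all probes. The Pdk4 ratio came under 2-fold with scaling to the 75th percentile (-0.94), quantile normalisation (-0.97) and cyclic loess (-0.87). None of the 10 passed 2-fold between the labelled βERKO array and WT with DMBA, and Slc16a7 alone did between WT with and without DMBA (1.54), though not under normexp correction. All probes gave 6.96% higher and 8.37% lower in the former comparison and 10.1% and 8.46% in the latter.

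Among the relatives of Ndrg1, Ndrg2 had log2 ratios of 1.65 for αERKO over WT with DMBA and 1.72 for WT with over without DMBA, where Ndrg1 had -0.51 and -0.76. Ndrg3 and Ndrg4 stood at -0.07 and 0.08 for αERKO over WT with DMBA. Of 13 other angiogenic factors measured, 6 were over 2-fold higher on WT with than without DMBA and none was lower. Over all probes these shares were 10.1% and 8.46%. The 6 became 5 under quantile normalisation, 4 under normexp correction and 7 under cyclic loess. Under normexp correction the share of all probes over 2-fold higher fell as well. Among the 6 were Thbs2 (4.03), an inhibitor of angiogenesis, and Hgf, at least 2.93-fold higher. Between αERKO and WT with DMBA, Ccn2 (-2.10), Angpt2 (-1.35) and Angptl4 (-1.33) were lower and none was higher. That is 3 lower of 13, beside 14.1% of all probes lower and 11.7% higher.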
